A study of Mus musculus with 3 samples.

Results

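Broad unsplit regions were accessible regions of at least 1000 bp in the untreated library that met a single region at each later time. They numbered 618 of the 2284 regions of that length on chromosomes 1 to 19 and X at 0 h, which is 27.1% (25.2 to 28.9), and 182187 regions of any length lay on those chromosomes. A region was a member when it overlapped exactly 1 region of the 6 h list and exactly 1 of the 72 h list by at least 1 bp. The members were thus selected on their length at 0 h and their numbers of partners, and these values are given as a description.

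Chromatin accessibility was measured by ATAC-seq, a transposase assay of open DNA, in ECOMG cells, a mouse myeloid progenitor line. All libraries came from cells of the genotype FKBP12F36V_NIPBL, in which a degron is fused to NIPBL, and all cells grew with GM-CSF and with estradiol. The groups were 0 h without dTAG, 6 h with dTAG and 72 h with dTAG, the compound that directs the tagged protein to breakdown, with 1 library of 50000 cells each. Time in culture and dTAG therefore cannot be told apart, no difference between times could be checked against replicates, and none was tested. The lists held 182233, 178055 and 145044 regions at 0, 6 and 72 h, of which 2285, 2261 and 1065 were at least 1000 bp long. Read totals were not analysed here, so the precision behind each value is unknown. Of 13 myeloid progenitor markers, 11 had a 0 h region within 1 kb of a start, Mpo and Irf8 did not, and 0 of the 13 had a member there. Markers of other types had such regions too: 8 of 10 for mature neutrophils, 4 of 5 for macrophages, 2 of 6 for lymphoid cells, 3 of 6 for erythroid cells and megakaryocytes, 2 of 4 for mast cells and eosinophils, and 3 of 6 for non-blood tissues, so a region at a start does not tell the cell type.

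NIPBL loads cohesin, the ring complex that extrudes chromatin loops, onto DNA. Most accessible regions are short stretches at enhancers or promoters, while broad ones are typical of CpG-rich promoters, where nucleosomes are sparse on both sides of the transcription start. A peak caller lists such a promoter as 1 broad region or as several pieces, depending on how far the signal dips between its maxima.

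The stretches that follow show what lies under members. Each holds the 150 bases before the start of a gene whose member is described further on, 5′ to 3′ on the gene's strand, from the RefSeq promoter table of GRCm38.p6, the assembly of mm10. Sp1 and Wbp11 are among the highest members, H1f2 among the longest, Slc36a4 and Tbkbp1 among those that changed rank most, and Ets2, Nfkbia and Polr2a are list genes. Capitals mark every match, on either strand, to GGGCGG (GC box), CCAAT (the box bound by NF-Y), CCGGAAG (ETS), TGACGTCA (CRE), TATAAA (the core promoter element), TGACTCA (AP-1) and CACGTG (E-box).
Sp1 (chr15:102406166-102406315, plus strand): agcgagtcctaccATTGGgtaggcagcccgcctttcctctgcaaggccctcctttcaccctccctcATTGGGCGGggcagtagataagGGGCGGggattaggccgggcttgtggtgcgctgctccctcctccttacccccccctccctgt
Wbp11 (chr6:136828217-136828366, minus strand): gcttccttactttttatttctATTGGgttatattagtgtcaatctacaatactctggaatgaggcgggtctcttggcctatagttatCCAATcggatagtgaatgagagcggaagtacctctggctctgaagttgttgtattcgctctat
H1f2 (chr13:23738657-23738806, plus strand): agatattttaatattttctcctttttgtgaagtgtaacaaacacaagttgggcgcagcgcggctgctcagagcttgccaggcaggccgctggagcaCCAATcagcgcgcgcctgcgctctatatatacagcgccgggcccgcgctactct
Slc36a4 (chr9:15709588-15709737, plus strand): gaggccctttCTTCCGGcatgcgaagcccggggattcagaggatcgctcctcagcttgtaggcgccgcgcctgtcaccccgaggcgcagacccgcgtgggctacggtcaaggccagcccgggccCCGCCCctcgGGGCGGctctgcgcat
Tbkbp1 (chr11:97150076-97150225, minus strand): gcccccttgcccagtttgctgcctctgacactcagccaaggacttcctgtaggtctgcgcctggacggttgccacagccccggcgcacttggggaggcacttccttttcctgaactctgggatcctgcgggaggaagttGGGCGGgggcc
Ets2 (chr16:95702257-95702406, plus strand): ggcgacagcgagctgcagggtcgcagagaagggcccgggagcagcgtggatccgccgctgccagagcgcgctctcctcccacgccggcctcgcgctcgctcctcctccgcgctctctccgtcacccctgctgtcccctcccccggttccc
Nfkbia (chr12:55492648-55492797, minus strand): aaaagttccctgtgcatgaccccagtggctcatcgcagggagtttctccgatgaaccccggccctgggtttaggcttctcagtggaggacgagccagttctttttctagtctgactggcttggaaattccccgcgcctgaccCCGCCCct
Polr2a (chr11:69758634-69758783, minus strand): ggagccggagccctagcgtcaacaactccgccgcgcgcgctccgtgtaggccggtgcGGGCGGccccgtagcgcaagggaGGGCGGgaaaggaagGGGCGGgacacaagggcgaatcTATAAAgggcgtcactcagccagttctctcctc
Polr2a has 3 GC boxes and a TATA box at -33 from the start, Sp1 has 2 GC boxes and 2 CCAAT boxes, and Slc36a4 has 2 GC boxes and an ETS match. In Sp1, 1 CCAAT match overlaps a GC box. The Ets2 stretch holds 18 CpG and no match to any of these letters, and the Nfkbia stretch holds 1 GC box.

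Promoters under members were richer in CpG than those of most genes. Over the 250 bases before the start, the 492 genes in the promoter table with a member within 1 kb had a median G+C content of 66% and a median CpG ratio (observed over expected) of 0.852. A ratio of at least 0.6 was found in 89.4% (86.4 to 92.0) of them, against 46.1% of all 17273 coding genes in the table. The median was 0.836 for 1276 genes with a broad region that split at 72 h, 0.781 for 2535 genes with a matched region of 500 bp to just under 1000 bp, 0.634 for 4686 genes with one under 500 bp and 0.209 for 6510 genes without a 0 h region. Genes with a broad region of either kind thus had higher medians than those with shorter regions or none, and the quartiles of members and of broad regions that split overlapped widely. Intervals here and elsewhere are exact Clopper-Pearson 95% intervals, and they cover counting error only.

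**Figure D1:**
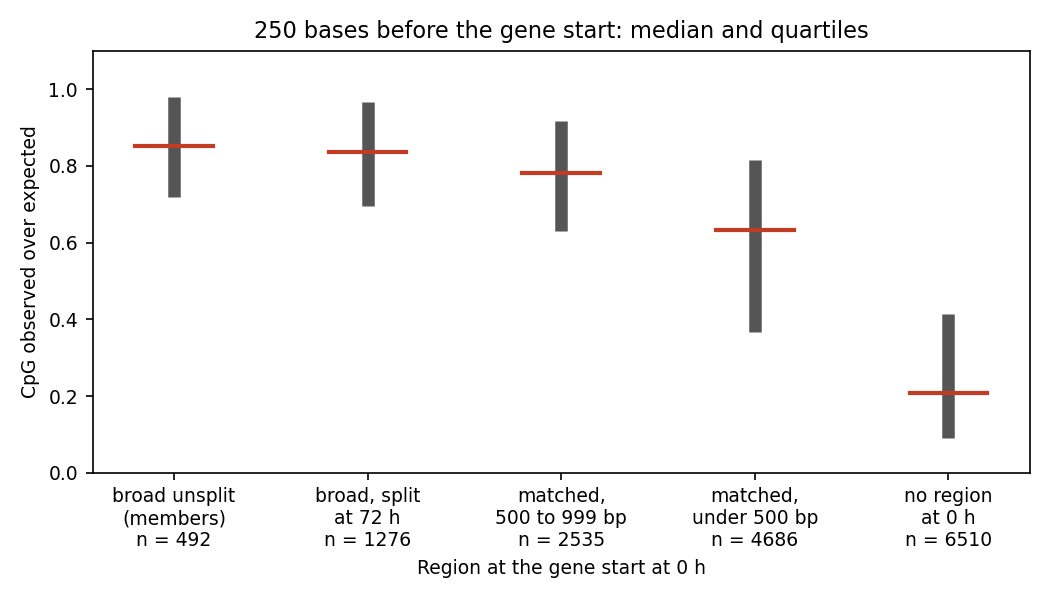
CpG observed over expected in the 250 bases before the gene start (vertical axis), by the kind of 0 h region within 1 kb of the start (horizontal axis). Red lines are medians and grey bars span the quartiles over genes. The medians fall from 0.852 at members to 0.209 at genes with no region.

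Motif letters followed this composition in part. The GC box, the element bound by Sp1 and related factors, was present before 77.8% (73.9 to 81.4) of the member genes and 43.6% of all genes, with 67.1% for genes with a matched region of 500 bp to just under 1000 bp. The CCAAT box, bound by NF-Y, was as frequent in member genes (36.4%) as in all genes (36.5%). ETS letters stood before 15.04% and 9.44%, E-box letters before 12.2% and 6.70%, and CRE letters before 4.27% and 2.01%. TATA letters were rarer in member genes, at 5.49% against 12.3%, as were AP-1 letters, at 2.24% against 4.04%. Genes with a broad region that split at 72 h had close shares, so these were not particular to members. For them the GC box stood at 75.4%, ETS at 14.9%, CRE at 3.45%, TATA at 5.09% and AP-1 at 2.04%. Their E-box share differed more, at 7.84%. For TTGCGCAA, the C/EBP palindrome, the count was 0 of 492, which allows a share of up to 0.747%, and the share over all genes was 0.214%. GC-rich letters are found more often in GC-rich sequence of any kind, and this was not adjusted for.

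Most members lay at the starts of coding genes. A start or, for genes without one in the table, a span end of a protein-coding gene lay within 1 kb of 531 members, or 85.9% (82.9 to 88.6). A further 40 lay inside a gene span and 47 between genes. The share was 63.2% for matched regions of 500 bp to just under 1000 bp and 14.0% for those under 500 bp, but 87.3% (85.6 to 88.9) for the 1546 broad regions that split at 72 h. Broad regions of both kinds were thus at gene starts more often than shorter ones, and the intervals of members and split regions overlap. At least 2 coding starts lay inside 43 members (6.96%), and in 35 (5.66%, 3.98 to 7.79) a pair of starts pointed away from each other, as at Hnrnpk and Rmi1. Such divergent pairs were in 129 of the split regions (8.34%, 7.01 to 9.84), and the intervals overlap. The start of a lncRNA gene lay inside 74 members (12.0%), and the share in other regions was not counted.

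Longer regions were less often unsplit. Members made up 348 of 983 regions of 1000 bp to under 1200 bp (35.4%, 32.4 to 38.5), 186 of 782 regions up to under 1500 bp (23.8%), 70 of 388 regions up to under 2000 bp (18.04%) and 14 of 131 regions of 2000 bp or more (10.7%, 5.97 to 17.3). Of all 2284, 1558 met 1 region at 6 h and 726 met more, while 732 met 1 region at 72 h, 1546 met more and 6 met none. A single region at 6 h but several at 72 h was recorded for 939, and the reverse for 114. Just inside the length minimum were the members at Coq10b, Hic1 and Cox14, each of 1000 bp, and just outside it those at Skp1 and Cnpy3, each 1 bp too short, and Nfe2l1, of 998 bp. The Nfe2l1 region measured 973 bp at 6 h and 407 bp at 72 h, and the Coq10b member 1034 and 1019 bp.

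Around a start, members reached farther into the gene than away from it. In 331 members with a single coding start inside and its direction known, the region extended a median of 535 bp upstream and 653 bp downstream at 0 h, 532 and 688 bp at 6 h, and 530 and 638 bp at 72 h. More of the region lay downstream in 204 (61.6%, 56.2 to 66.9) before dTAG, 214 at 6 h and 199 at 72 h. The summit, the listed point of highest signal, lay on the other side: it was upstream of the start in 255 members (77.0%, 72.1 to 81.5) before dTAG, 244 at 6 h and 252 at 72 h. Its median position in these libraries was 74, 76 and 72 bp before the start. The difference between 0 h and 72 h was seen mostly at the downstream edge. That edge lay at least 100 bp nearer to the start at 72 h in 67 members (20.2%) and at least 100 bp farther in 20. For the upstream edge the counts were 33 and 29. With partners not shared with another 0 h region (266 members), they were 55 nearer and 5 farther downstream, and 29 and 12 upstream. The same held for 1761 matched regions of 500 bp to just under 1000 bp with a single start, at 17.1% nearer and 7.61% farther downstream against 7.10% and 4.83% upstream, so it was not particular to broad regions.

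**Figure D2:**
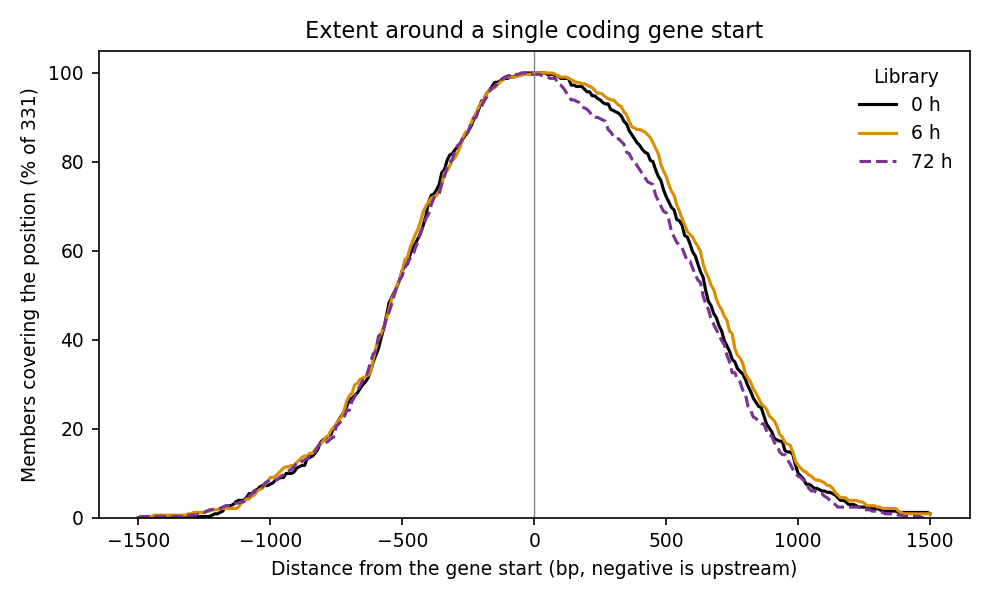
Share of 331 members with a single coding start inside whose listed region covers each position (vertical axis, percent), by distance from the start in the gene's direction (horizontal axis, bp), at 0, 6 and 72 h. The curves overlie each other upstream of the start, and downstream the 72 h curve lies below the others.

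Lengths of members stayed close to those at 0 h. The rule had left out broad regions that split, 1546 of 2284 at 72 h, so this does not describe broad regions at large. Median length over the 0, 6 and 72 h libraries was 1167.5, 1205 and 1160 bp, with quartiles of 1066.25 and 1353 bp, 1083.5 and 1438.5 bp, and 1021 and 1346 bp. The median ratio to 0 h was 1 at 6 h and 0.975 at 72 h, against 1.01 and 0.960 for matched regions of 500 bp to just under 1000 bp. Of the members, 464 were at least 1000 bp long at both later times. At 6 h, 45 members (7.28%) were listed at least 25% longer and 7 (1.13%) at least 20% shorter, where the shares over all 95210 matched regions were 23.9% and 14.1%. At 72 h, 25 (4.05%) were longer and 61 (9.87%) shorter, against 28% and 27.7%. Members were thus past these bounds less often than matched regions of any length, most of which were short. Matched regions of 500 bp to just under 1000 bp lay between. Of these, 13.2% were longer and 6.07% shorter at 6 h, and 9.14% and 19.9% at 72 h. When regions of −log10 q under 10 were dropped from every list before partners were counted, 953 regions met the rule. Of these, 67 were longer and 70 shorter at 6 h, and 26 and 296 at 72 h. Those of the 953 that are not members had met more than 1 region at a later time in the full lists. Without the weak pieces they counted as unsplit, with a partner that can be short. These counts thus describe a different set and do not bear on the lengths of the 618 members.

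Nearly all of the longer members had a partner that also covered a neighbour. Of the 45 longer at 6 h, 44 overlapped a partner that also covered another 0 h region, as did 23 of the 25 at 72 h. None of the shorter members did (0 of 7 and 0 of 61). Over all 618 members, such a partner was found for 97 (15.7%) at 6 h and 59 (9.55%) at 72 h. A partner that also covers a neighbour must reach past the member's edge, so much of this difference was fixed in advance. Regions chosen for their length at 0 h can be listed shorter elsewhere for that reason alone. With the same rule applied to the 72 h list, 687 regions were found, of which 163 were at least 20% shorter and 11 at least 25% longer at 72 h than at 0 h. Among the 480 of these whose 0 h partner met no other 72 h region, 17 were shorter and 11 longer, with a median ratio of 0.992.

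**Figure D3:**
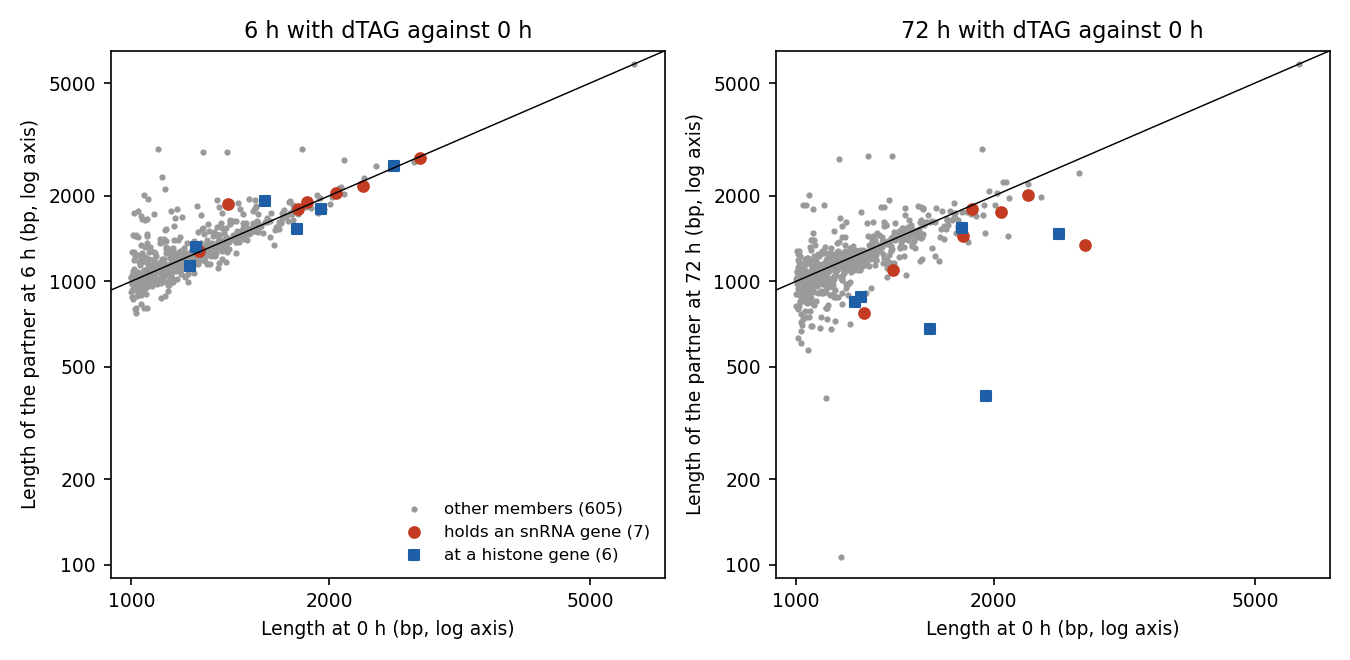
Length of each member's partner at 6 h (left) and 72 h (right) against the member's length at 0 h, in bp on log axes, with the line of equal length. The 7 members that hold an snRNA gene are red circles and the 6 at histone genes blue squares. Points keep near the line at 6 h, and several histone members lie far under it at 72 h.

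The longest member was a stretch of 5829 bp at chr17:39842996-39848824, the same length at every time, which holds the ribosomal RNA pseudogene Rn18s-rs5. Its summit fold, the ratio to background that the authors' peak caller gave each peak, was 1126, 1203 and 443 in the 0, 6 and 72 h libraries, and its summit lay 5633 bp away in the last. Ribosomal RNA genes are repeated many times in the genome, so reads from other copies may be counted there. Values below are in the order 0, 6 and 72 h unless a time is named. Near Ywhaz, which encodes a 14-3-3 adaptor protein, the member measured 2696 bp at 0 h, 2644 bp at 6 h and 2406 bp at 72 h. It lay 8228 bp from that gene's listed start or end, inside the span of a coding gene. Immediate-early transcription factor genes were among them: the Egr1 member measured 2358, 2550 and 1985 bp, and one near Fosb 2258, 2304 and 2203 bp. At Mllt10, a cofactor of the histone methyltransferase DOT1L, the lengths were 2112, 2026 and 1970 bp. Setd7, a lysine methyltransferase gene, went with 2069, 2127 and 2245 bp, and Lonrf1 with 2085, 2153 and 2247 bp. Both were listed longer at 72 h than at 0 h. Dennd4b, an exchange factor for Rab GTPases, had 2022, 1986 and 2044 bp, and the shared member of Hnrnpk, an RNA-binding protein, and Rmi1, of the complex that dissolves recombination intermediates, had 2009, 1866 and 1863 bp. Sp1 closed this group with 1965, 1801 and 2075 bp. Actb, which encodes beta-actin, differed: 2105 bp at 0 h, 2670 bp at 6 h with a neighbour included, and 1443 bp at 72 h.

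Members were also high. A height rank is used from here on, because folds of separately called lists cannot be compared directly: the percentile of a region's fold among the same 95210 matched regions in each library. In the 3 libraries members had median ranks of 97.9, 97.7 and 97.4, against 94.6, 93.9 and 92.9 for matched regions of 500 bp to just under 1000 bp. Other than the chr17 stretch, the highest members were chr2:98666237-98667327, with no coding gene within 100 kb and folds of 1070, 1114 and 903 in the 3 libraries, and Pdzd8, a lipid transfer protein of the endoplasmic reticulum, with 1030, 1086 and 504. Eif4enif1, a binding partner of the cap-binding factor eIF4E, had 682, 782 and 817. Its member lay 8446 bp upstream of its listed start, inside the span of a coding gene. Among the others were Arih1, a ubiquitin ligase (337, 355 and 228), Wbp11, a splicing factor (328, 404 and 454), and Sp1 (249, 310 and 325). Zfp395 (233, 255 and 250), 14422 bp from the member, and Mtmr4, a phosphoinositide phosphatase (223, 314 and 358), were also among the first 10. Each of these stayed above the 98th percentile of the matched set in every library. The sequence under members away from gene starts was not available here. Whether reads from repeated copies add to the folds of the chr2 member or the one near Eif4enif1 was not tested.

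Members occupy the top of the matched set, where ranks differ little even between regions whose folds in the same library differ much. A rank at least 10 points higher than at 0 h was found for 6 members at 6 h and 7 at 72 h, where the shares over all matched regions were 17% and 28.3%. A rank at least 10 points lower was found for 1 and 25 members, against 18.4% and 31.6%. Shifts in both directions are compressed there. The member near Arl4d had percentiles of 83.3, 85.8 and 14.97 when ranked among the members alone. Its rank in the matched set changed by -9.47 points at 72 h, under the bound. These counts therefore say little about how stable the heights were. Higher ranks at 72 h included 2 receptor genes of myeloid cells. Sirpa encodes the inhibitory receptor of myeloid cells for CD47. The member 1355 bp from its listed start or end had ranks of 76.5, 78.2 and 97.4. The length of this member went from 1255 and 1283 bp to 1754 bp at 72 h, where its partner covered another 0 h region. A member 44296 bp from Ccr1, a chemokine receptor gene, had ranks of 83.8, 97.2 and 97.5, but it shared 1 partner of 2865 bp at 6 h and 2769 bp at 72 h with a second member beside it. Slc36a4, an amino acid transporter gene, had ranks of 81.2, 87.5 and 96.3 without a shared partner. A member 96528 bp from Gpr141, an orphan receptor gene, had 64.1, 68.9 and 90.2, and its neighbour 93630 bp from that gene had 72.8, 58.4 and 81.9 at 1160, 1108 and 2691 bp, the last with a shared partner. Erbin, a scaffold protein (73.8, 80.3 and 86.9), Actg1, gamma-actin (80.05, 87.7 and 92.6), and Bcor, a corepressor of BCL6 (64.1, 74.9 and 76.3), also stood higher at 72 h. The partners of Erbin at 6 h and of Bcor at both times covered another 0 h region.

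The lowest member of all had the smallest length ratio. At 5350 bp from an end of the Tspoap1 span, a region of 1171 bp at 0 h and 1086 bp at 6 h was matched by 107 bp at 72 h. Its rank was 35.8, 50.9 and 4.33. A member 3099 bp from an end of the span of Pcsk4, a proprotein convertase gene, measured 1111, 872 and 389 bp. Its ranks were 80.7, 73.4 and 28.9. Both were among the weakest members at 0 h, with folds of 9.07 and 31.0. Ranks were also lower at 72 h for Sh3pxd2a, an adaptor of podosomes (85.1, 82.5 and 59.6), for a member 86730 bp from Dyrk1a, a protein kinase (95.3, 93.9 and 76.3), for Tbkbp1, an adaptor of the kinase TBK1 (87.0, 81.7 and 68.1), and for chr15:63647767-63648817, with no named gene within 100 kb (94.8, 91.0 and 66.3). The remaining named falls were at small RNA genes within Tex14, described below. Of the members with the smallest length ratios at other than histone genes, Nkiras1 with Rpl15, a ribosomal protein gene (1044, 944 and 571 bp), kept its rank at 99.7, 99.7 and 99.8. Zfp771 had 1206, 1032 and 706 bp. Among those with the highest ratios at 72 h, these shared a partner with a neighbour: Dsg2, a desmosomal cadherin (1046, 2010 and 2007 bp, 20741 bp away), Cyrib (1024, 1774 and 1854 bp), Ggnbp2 (1034, 1705 and 1854 bp) and Blvrb, a biliverdin reductase (1102, 1100 and 1865 bp).

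Ranking the members among themselves gave a finer scale, and ranks in the rest of the Results are on this scale unless another set is named. On it, 51 members stood at least 10 points higher and 51 lower at 6 h, and 138 higher and 113 lower at 72 h, with a median absolute shift of 4.05 points at 6 h and 7.36 at 72 h. The largest rise was at Fosl2, which encodes an AP-1 subunit, from 22.9 at 0 h and 35.3 at 6 h to 76.0 at 72 h, at a length of 1228, 1241 and 1235 bp. Its rank thus differed between libraries while its length hardly did. The members at Sirpa and Ccr1 named above came next, then Lyl1, a transcription factor gene of blood progenitors, with 8.09, 19.3 and 48.4 in a member 5113 bp from its start. Zfp36, which encodes the mRNA decay factor tristetraprolin, had 44.8, 57.4 and 79.6 in a member 2645 bp away, Dennd3 had 8.09, 8.17 and 42.1 at a distance of 24391 bp, and a member that overlaps the span of a coding gene whose listed start lies 140608 bp away, chr3:79286483-79287654, had 36.9, 56.9 and 72.3. Ciart, a circadian repressor, stood lower at 82.2, 66.5 and 27.7 with its length at 1151, 1051 and 1146 bp. Actb stood at 81.4, 85.2 and 36.7. The plot of height percentiles shows that points spread more widely about the diagonal at 72 h than at 6 h.

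**Figure D4:**
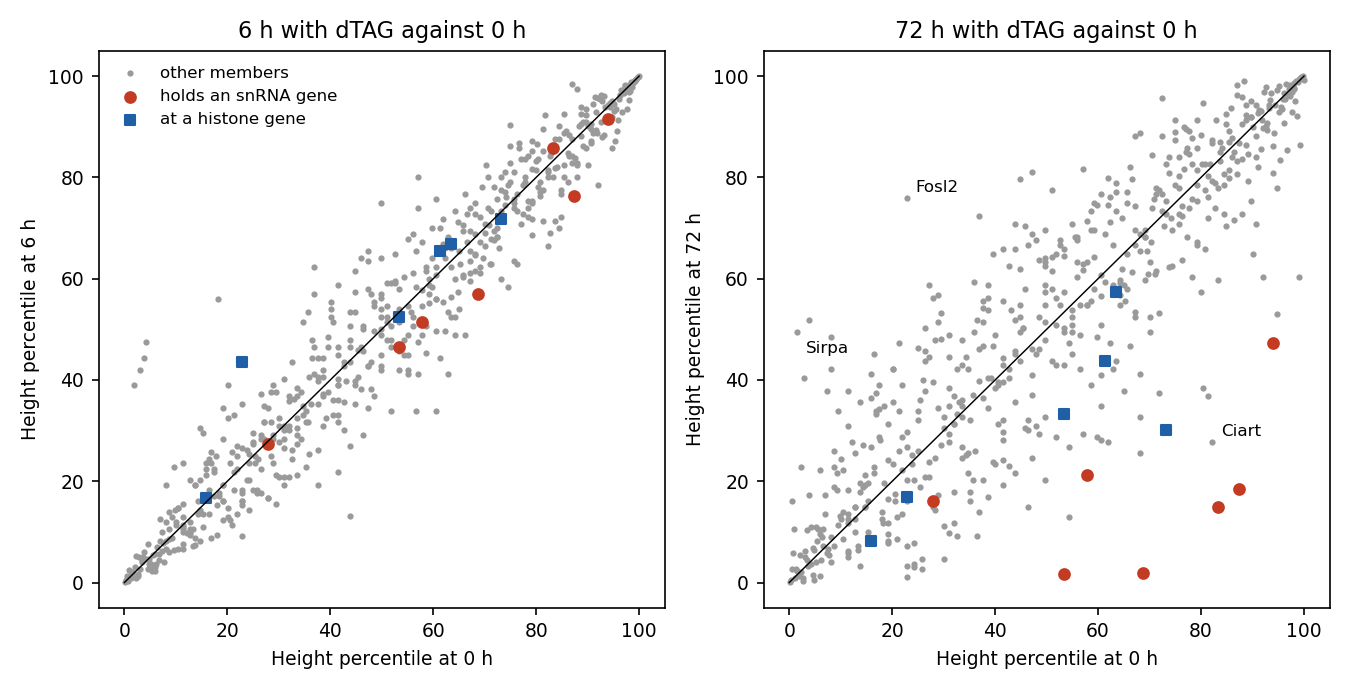
Height percentile of each member among the 618 members at 6 h (left) and 72 h (right) against 0 h, with the line of equal rank. Members that hold an snRNA gene (red circles) and members at histone genes (blue squares) lie under the line at 72 h. At 6 h H3c6 lies above the line, and the members with Rnu7 and Rnu3b4 lie more than 10 points under it. The others of these classes lie nearer to it. Fosl2, Sirpa and Ciart are labelled.

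Members at genes annotated as small nuclear RNAs were lower at 72 h. These RNAs serve in splicing (U1, U2), in ribosomal RNA processing (U3) and in the 3′ processing of histone mRNA (U7), and are made from short, highly active genes. The class was chosen after its values were seen. Genes that the reference annotates as snRNA, those of U3 included, lay inside 7 members. All 7 had a lower rank among members at 72 h, as had 294 of the 618 members. The 7 changes ranged from -68.8 to -11.8 points around a median of -51.7. At 6 h the median change was -6.47 points. Rnu7 lies in the member at Grcc10 (chr6:124739911-124741706), which had ranks of 87.3, 76.4 and 18.5 and lengths of 1796, 1792 and 1448 bp. Rnu2-10 (chr11:101658352-101660402), near Arl4d, had ranks of 83.3, 85.8 and 14.97 and lengths of 2051, 2045 and 1753 bp. The 2 U3 genes within the span of Tex14 gave the lowest ranks at 72 h: Rnu3b4 (chr11:87462453-87463719) had 68.7, 56.9 and 1.86 and Rnu3b3 (chr11:87448801-87450206) 53.4, 46.6 and 1.70. Their lengths were 1267, 1282 and 773 bp, and 1406, 1874 and 1098 bp, the second with a shared partner at 6 h. Rnu1a1 (chr11:87422833-87424685), in the same gene, had 27.8, 27.3 and 16.02, and it was the least changed of the class in rank and in length, at 1853, 1910 and 1795 bp. Gm24265 and Gm24407, in the member near Pxn, a focal adhesion adaptor (chr5:115489356-115491611), went with 93.9, 91.6 and 47.2 at 2256, 2160 and 2013 bp. Gm24497 (chr1:72243698-72246451), 31384 bp from Mreg, went with 57.8, 51.4 and 21.2 at 2754, 2719 and 1340 bp.

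Not every member at a small RNA gene did so. Transfer RNA genes lay inside 7 members, and their rank changes at 72 h were 17.6 points at Atp5h, 9.47 at Trim55, 14.8 at Plekhg2, 23.5 at Polg, -1.62 at Wnt11, -3.40 at Wbp4 and -19.5 at Fbxo31. They went in both directions, 4 higher and 3 lower. The member with Snora24, annotated as a snoRNA and nearest to Prss12, moved by 5.02 points. Those with the unclassified RNAs Gm4633 and Gm6287 moved by -42.7 and 22.1. These classes are the reference's labels and do not separate RNAs by function. The 595 members with neither a small RNA nor a histone gene had a median change of 0.65 points and a median length ratio of 0.976.

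Members at histone genes were shorter at 72 h. Most histone genes lie in clusters and are transcribed in S phase, while H3f3a and H1f0 encode replication-independent forms. This class, too, was chosen after its values were seen. Of 80 histone genes in the reference, 71 had a 0 h region within 1 kb, 36 a broad one, 26 a broad one that split at 72 h and 6 a member. Over all 21627 coding genes these counts were 13589, 2260, 1562 and 607. A split was thus recorded for 26 of 36 histone genes with a broad region and 1562 of 2260 coding genes with one, so it was not particular to histone genes. All 6 members were shorter at 72 h, where 384 of the 618 members (62.1%) were, and 5 of them by at least 20%, against 61 of 618 (9.87%). All 6 had a lower rank among members, as had 294 of the 618, at a median length ratio of 0.636 and a median rank change of -12.7 points. H1f1, a linker histone gene, showed the greatest difference, at 1943 bp at 0 h, 1792 bp at 6 h and 394 bp at 72 h. H1f0 had 1598, 1916 and 681 bp, and H1f2 had 2513, 2549 and 1473 bp, with its start, printed above, close to one end of the member. The core histone genes H3c6 and H4f16 had 1229, 1132 and 842 bp, and 1255, 1323 and 878 bp. H3f3a had 1788, 1526 and 1545 bp, so most of its difference was present at 6 h. At 6 h the median ratio of the 6 was 0.968. H4f16 had the largest change of rank, from 73.2 and 71.8 to 30.0.

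**Figure D5:**
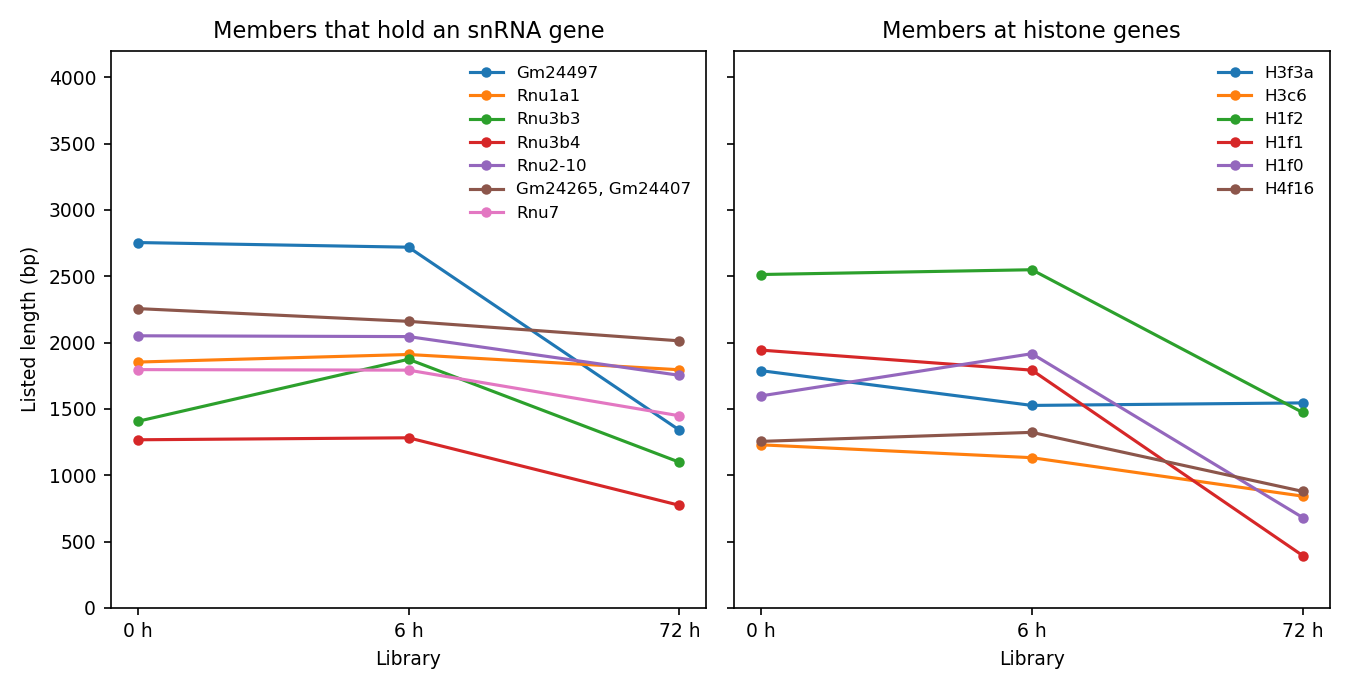
Listed length in bp (vertical axis) in each library (horizontal axis) of the 7 members that hold an snRNA gene, left, and the 6 members at histone genes, right. Each line is 1 member. All 13 are shorter at 72 h than at 0 h.

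Shorter regions outside the members were also listed shorter at histone genes. Among matched regions of 500 bp to just under 1000 bp, 18 lay within 1 kb of a histone gene. Their median length ratio at 72 h was 0.401 against 0.960 for all regions of that length, 17 of 18 were shorter, and 12 by at least 20%. Over all 4564 regions of that length, 2827 (61.9%) were shorter and 908 (19.9%) by at least 20%. In height the 18 were mixed: 13 had a lower rank among regions of that length, as had 2269 of all 4564, and 5 a higher one. A rank at least 10 points lower was found for 10 of the 18 and 951 of the 4564. One at least 10 points higher was found for 2 and 907, with H2ac8 up by 14.3 points and H2ac22 by 13.0. At H3c3 the lengths were 870, 878 and 179 bp, and at H3c11 870, 809 and 82 bp. H2bc3 had a region of 654, 646 and 885 bp, the exception. The 1 matched region of that length with an snRNA gene, Gm23287, nearest to Kif2c, measured 615, 1319 and 232 bp. Many snRNA and histone genes have near-identical copies, so reads may have been placed at another copy, and these values are uncertain in that respect. The share of cells in S phase was not measured.

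Genes of the lists examined had broad regions of either kind more often than coding genes at large. Of 326 genes in 18 lists, 23 (7.06%, 4.52 to 10.4) had a member within 1 kb of the start, against 607 of 21627 coding genes, or 2.81%. A broad region of any kind was at 89 of the 326 and 2260 of the 21627, and one split at 72 h at 63 and 1562, so the higher share was not particular to members. The lists were chosen with earlier results in view, so this is a description. Members were at 4 of 22 myeloid transcription factor genes. Egr1 is given above. Ets2, an ETS factor, had ranks among members of 27.8, 16.7 and 56.2 at 1130, 1067 and 1231 bp. Mxd1, a MAX partner that opposes MYC, had 82.2, 81.0 and 87.4 while its length went from 1147 and 1302 to 726 bp, and Junb, an AP-1 subunit, had 51.1, 52.3 and 43.8 at 1185, 1147 and 1279 bp. Of the 21 progenitor genes the one with a member was Etv6, an ETS repressor, at 8.09, 6.72 and 4.05 and 1434, 1406 and 1219 bp.

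Signalling genes with a member were Il3ra, a receptor subunit for interleukin 3 (1318, 1153 and 1139 bp), Jak2, the kinase bound to its receptor complex (1110, 1098 and 915 bp), and Syk, a kinase of immune receptors (1168, 1236 and 1139 bp), 3 of 20. The NF-kB list also had 3 of 20. Nfkb2, the p100 precursor, had ranks among members of 41.6, 39.0 and 55.7. Relb, its partner subunit, had 86.1, 79.1 and 84.0, and Nfkbia, the inhibitor, 33.6, 29.1 and 35.0. The Nfkbia member was longest at 72 h, at 1094, 1143 and 1260 bp, and the Relb summit lay 271 bp away at 72 h. In the nuclear envelope list, 4 of 17 genes had a member, and their ranks stood 3.96 to 22.01 points higher at 72 h than at 0 h, where 294 of all 618 members stood lower: Lbr, the lamin B receptor, at 53.4, 51.4 and 65.9, Lemd2, an inner membrane protein, at 20.1, 39.0 and 42.1, Sun2, of the LINC complex, at 61.9, 71.8 and 79.9, and Nup153, a nuclear pore protein, at 31.0, 30.9 and 35.0. Of 17 cohesin and loop extrusion genes, Esco1, the acetyltransferase of cohesin, was the one with a member (29.5, 15.5 and 48.1 at 1012, 1010 and 973 bp). A further 10 genes of that list, of 11 with a broad region, had one that split at 72 h. Over all coding genes this was so for 1562 of the 2260 with a broad region.

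Housekeeping and chromatin genes had 3 members each, of 20 and 21, with Polr2a in both lists. Polr2a, the largest subunit of RNA polymerase II, had ranks among members of 49.8, 48.9 and 51.4 at 1559, 1726 and 1809 bp. Ep300, a histone acetyltransferase, had 87.9, 82.4 and 90.5, and Ccnt1, the cyclin of the elongation factor P-TEFb, 73.2, 73.3 and 75.3. Ldha, lactate dehydrogenase, was lower from 6 h on (43.8, 13.2 and 21.7). Cell cycle genes with a member were Cdk6 (21.8, 22.3 and 22.2) and Rb1 (4.21, 4.69 and 11.003), 2 of 19, and the Rb1 member went from 1087 and 1119 to 687 bp. Lists without a member were 0 of 22 mature neutrophil genes, 0 of 17 granule protein genes, 0 of 18 interferon response genes, 0 of 15 monocyte and macrophage genes, 0 of 12 mast cell, basophil and eosinophil genes, 0 of 18 lymphoid genes, 0 of 16 erythroid and megakaryocyte genes and 0 of 20 genes of non-blood tissues. Of the 22 neutrophil genes 19 had some 0 h region at the start, and 0 had a broad one. For 22 genes the count of 0 allows a share of up to 15.4%, so lists of this size do not separate 0 from the 2.81% of all coding genes. Ribosomal protein genes also had 0 of 20. Of these, 7 had a broad region, and all 7 were split at 72 h, where 1562 of the 2260 coding genes with a broad region had one that split.

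Summits held their place in most members. The median distance between the summit at 0 h and that of the partner was 14 bp at 6 h and 20 bp at 72 h. A distance of 200 bp or more was found in 38 members (6.15%) at 6 h and 72 (11.7%, 9.23 to 14.4) at 72 h, where the shares over all matched regions were 2.83% and 3.17%. Matched regions of 500 bp to just under 1000 bp had 5.32% and 8.28%. A longer region has more room for the summit to move, and this was not adjusted for. At Setd7 the summit lay 1158 bp away at 6 h and 1183 bp at 72 h, at Sirpa 6 and 1191 bp, and at Sp1 0 and 548 bp. Sp1 nonetheless kept its place among the highest members. H1f2 was the reverse case, with 862 bp at 6 h and 4 bp at 72 h.

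Members seldom lay side by side. There were 16 close pairs, or 32 members, none of which spanned more than 14919 bp, and 23 groups, or 47 members, within 25 kb, and the median distance to the nearest other member was 582 kb. Pairs stood at Mnt, a MAX partner, at Nr4a3, an orphan nuclear receptor (1163, 1086 and 1170 bp, and 1155, 1132 and 1110 bp), at Arid2, of a SWI/SNF complex (1395, 1335 and 1333 bp, and 1393, 1323 and 1286 bp) and at Tpt1, among others. The Arid2 pair was separated by a short gap that remained in all 3 lists. By chromosome there were 3.39 members per 1000 regions, from 2.18 on chromosome 1 (1.41 to 3.21) to 4.72 on chromosome 19 (3.16 to 6.77), with most members, 53, on chromosome 7.

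MicroRNA hairpins lay inside 3 members. The member of 1000 bp named for Hic1 (chr11:75172873-75173872) holds Mir212 and Mir132, whose 3p forms are printed from RefSeq with the seed, bases 2 to 8, in capitals because they share it.
miR-212-3p: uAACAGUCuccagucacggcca
miR-132-3p: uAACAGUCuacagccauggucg
This member measured 1027 bp at 6 h and 817 bp at 72 h, with folds of 57.5, 58.8 and 46.8. Mir3569 lay in the member at Kmt2b, a histone methyltransferase gene (1173, 1800 and 1437 bp), and Mir762 in that at Bcl7c (1081, 1268 and 1023 bp).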

How the data were processed

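ATAC-seq regions of 3 libraries, 1 each at 0 h without dTAG, 6 h and 72 h with dTAG, were read from the deposited peak lists, 1 per library. The submitters' processing notes name BWA 0.7.17, MACS2 2.2.7, bedtools 2.30.0 and the build mm10. For read filters, any shift of read ends and caller options, the sources used here name nothing. Which fragments entered peak calling is not stated, and the names of the lists carry the letters NF, which the labels do not explain. This bears on what a listed length or a split means. Per the deposited lists, each region has the authors' fold (ratio of the summit to background), −log10 p-value, −log10 q-value and an integer score. The lowest deposited −log10 q was 1.45, 1.44 and 1.64 at 0, 6 and 72 h. A fold is the region's own value and was used to rank regions within a list. Folds printed for several libraries are the listed values, and no difference between times was read from them.

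Matches needed a shared 1 bp. Matched regions had exactly 1 partner at each later time. Gene starts came from the RefSeq promoter table of GRCm38.p6 for 17273 coding genes. For the other 4354, chromosome 18 included, both span ends were used. Of 328 list genes 326 matched, and Azu1 and Sororin did not. Python 3.11.15, pandas 2.3.3 and scipy 1.17.1 were used. The matching and distances were tested on simulated regions.

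The members and lists were chosen with earlier results of these data known. Named were the 15 longest and 10 highest members, the 8 largest rises and falls of rank and of length ratio at 72 h, list genes with a member (at most 4 per list), groups, and regions next to the length minimum. Rank changes were taken in the matched set and among members alone. Each member carries the name of the nearest coding gene within 100 kb. SnRNA, histone, tRNA and microRNA members and the largest summit moves were named after their values were seen. Some genes that the naming rule covers are not reported here.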

Additional observations from a re-analysis of the deposited data

How the results depend on the processing

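Of the alternatives, 25 values stayed within 1.5 times of the main count, or within its interval, and 31 did not. Those that stayed include ranks by −log10 q, which give the same order, and counts over the 605 members outside the snRNA and histone classes. Neither could differ much, so the tally is no measure of how well the results held. A length minimum of 800 bp gave 1417 members and 38 list genes with one, a minimum of 1500 bp gave 84 members, 76.2% of them at gene starts, and a −log10 q of at least 10 gave 953 members. With starts from the promoter table alone, a choice made after seeing the data, 71.5% lay at gene starts. A 1.5-fold bound on length gave 17 longer and 0 shorter at 6 h and 9 longer and 18 shorter at 72 h. With regions of −log10 q of at least 10, 67 were longer and 70 shorter at 6 h, and 26 and 296 at 72 h. That setting takes in regions that were split in the full lists, so its length counts are not of the same set. With partners matched to 1 region in both directions, 1 was longer at 6 h and 2 at 72 h, and ranks were higher for 1 and lower for 0 at 6 h, and higher for 3 and lower for 9 at 72 h. In that setting 21 summits moved at 6 h. Chosen at 72 h, added after seeing the data, 11 were longer and 163 shorter. A shift of 5 points gave 10 higher and 8 lower at 6 h, and 13 and 73 at 72 h. Ranks among members alone gave 51 and 51, and 138 and 113. A summit bound of 500 bp gave 18 at 6 h and 22 at 72 h.

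Leaving out a replicate was not possible with 1 library at each time. No paired analysis was possible because the groups share no replicates and no test was run. Fold and −log10 q put the members in the same order within each list, so ranking by −log10 q was no separate check. The number of reads limits how finely a broad region is listed as 1 region or as several, and reads were not analysed here.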
